A study of Mus musculus with 8 samples.

Results

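Acetylation of lysine 27 of histone H3 (H3K27ac) marks active promoters and enhancers. It was mapped by chromatin immunoprecipitation and sequencing (ChIP-seq) in the mouse oligodendroglial line Oli-neu, which is labelled as embryonic oligodendrocyte progenitors of C57BL/6 origin. Among 21951 protein-coding genes of the mouse, 2218 (10.1%, 95% exact binomial interval 9.71 to 10.5) carried a promoter peak of H3K27ac in differentiating cells and none there in proliferating cells. These genes were chosen by the peak lists themselves. A gene belonged to them when a peak of the differentiating list, and no peak of the proliferating list, shared at least 1 base with the region from 3000 bp upstream to 100 bp downstream of its transcription start site (TSS). The presence of a peak in one state and its absence in the other is therefore how the genes were picked and not a result. Proliferating cells were kept in medium with T3, L-thyroxine, bFGF and Pdgf-BB. Differentiating cells were kept without growth factors for 1 day, as the labels give it (the culture methods of the study give a longer time), together with 1 μM of the erb inhibitor PD174265. Each state was represented by 1 library of 1 cell line, so there was no replicate error to hold a difference between the states against, and the states were not tested against each other. The effects of growth factor removal and of the inhibitor cannot be told apart. The study also has 6 ATAC-seq samples, 3 for siCtrl and 3 for siPadi2, that are not used here.

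H3K27ac is deposited by the acetyltransferases p300 and CBP and is removed by histone deacetylases, and at promoters it usually sits on the nucleosomes that flank an active TSS. Oligodendrocyte precursors divide in response to growth factors such as PDGF and FGF, and leave the cell cycle before they make the lipids and proteins of myelin. Several inhibitors of differentiation, among them the Id and Hes families, are known to hold precursors in the undifferentiated state, whereas transcription factors such as Sox10 and Myrf drive the myelin programme. Of the 9 markers of the oligodendrocyte lineage that were looked up, Sox10, Olig1 and Olig2 had a promoter peak in both states, and Nkx2-2, Cspg4, Pdgfra, Cnp, Mbp and Mog had one in neither. Of the 4 astrocyte, 4 neuron, 4 microglia and 3 endothelial markers, Gja1 was marked at its promoter in proliferating cells only and Syt1 in differentiating cells only, and the other 13 had no promoter peak. Only the most upstream TSS of each gene was used, so a peak at another start site of the same gene could be missed. An absent promoter peak, as for Mbp, therefore holds for that TSS only.

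The promoter sequences of 5 of these genes are shown because each stands for a group described further on: Tfeb for the transcription factors, Acaca for lipid synthesis, Fitm2 for lipid droplets, Ccng2 for the genes of growth factor withdrawal and Rab14 for the highest fold enrichment. Each line gives 300 bases, from 250 bases upstream of the TSS into the transcript, read 5′ to 3′ on the strand of the gene from the GRCm38 (mm10) genome. Capitals mark letters that match a motif on either strand, with GGGCGG for the GC box, CCAAT for the CCAAT box, CACGTG for the E-box, CCGGAAG for ETS factors and GCGCATGC for NRF1. A match is a string of letters and not a binding site. Tfeb is at chr17:47736780-47737079 on the plus strand, Acaca at chr11:84129422-84129721 on the plus strand, Fitm2 at chr2:163472580-163472879 on the minus strand, Ccng2 at chr5:93267007-93267306 on the plus strand and Rab14 at chr2:35201071-35201370 on the minus strand.
Tfeb: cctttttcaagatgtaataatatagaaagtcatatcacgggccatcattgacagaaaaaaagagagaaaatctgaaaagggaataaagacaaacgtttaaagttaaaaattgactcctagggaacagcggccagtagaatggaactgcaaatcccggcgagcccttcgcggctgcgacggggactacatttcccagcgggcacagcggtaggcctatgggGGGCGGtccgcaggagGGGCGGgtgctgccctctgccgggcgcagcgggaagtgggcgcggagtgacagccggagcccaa
Acaca: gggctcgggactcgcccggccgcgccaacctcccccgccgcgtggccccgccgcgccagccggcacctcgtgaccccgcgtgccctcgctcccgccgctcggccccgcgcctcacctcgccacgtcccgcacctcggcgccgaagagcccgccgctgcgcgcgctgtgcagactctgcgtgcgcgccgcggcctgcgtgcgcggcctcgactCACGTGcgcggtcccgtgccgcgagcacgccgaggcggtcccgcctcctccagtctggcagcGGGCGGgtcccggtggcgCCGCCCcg
Fitm2: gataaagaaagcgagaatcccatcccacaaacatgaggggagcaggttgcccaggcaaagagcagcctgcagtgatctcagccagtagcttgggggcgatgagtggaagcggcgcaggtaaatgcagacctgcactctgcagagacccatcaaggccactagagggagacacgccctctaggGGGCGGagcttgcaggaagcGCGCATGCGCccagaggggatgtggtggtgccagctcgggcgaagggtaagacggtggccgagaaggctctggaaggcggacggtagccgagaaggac
Ccng2: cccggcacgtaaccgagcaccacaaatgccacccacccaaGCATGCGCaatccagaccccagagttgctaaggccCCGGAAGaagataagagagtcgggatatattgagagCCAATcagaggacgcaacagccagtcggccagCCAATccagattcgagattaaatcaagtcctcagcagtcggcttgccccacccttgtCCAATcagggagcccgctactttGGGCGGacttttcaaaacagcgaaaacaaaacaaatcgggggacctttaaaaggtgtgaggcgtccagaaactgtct
Rab14: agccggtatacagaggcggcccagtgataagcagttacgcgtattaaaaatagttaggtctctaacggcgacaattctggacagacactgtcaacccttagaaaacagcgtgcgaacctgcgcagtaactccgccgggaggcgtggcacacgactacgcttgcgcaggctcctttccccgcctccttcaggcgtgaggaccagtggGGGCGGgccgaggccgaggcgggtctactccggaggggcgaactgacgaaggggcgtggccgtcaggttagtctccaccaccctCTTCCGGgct

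These sequences differed widely in their CpG content, given as the observed count of CpG over that expected from the C and G of the window. The ratio was 1.18 for Acaca, 0.969 for Rab14, 0.929 for Tfeb, 0.709 for Ccng2 and 0.595 for Fitm2. The window of Ccng2 held 3 CCAAT boxes, 1 GC box and matches to ETS and NRF1 letters, whereas that of Tfeb held 2 GC boxes and no other match. In Fitm2 the capitals GCGCATGCGC cover 2 overlapping NRF1 matches, 1 on each strand. The H3K27ac peak of Fitm2 (chr2:163472274-163472562) lay wholly downstream of the letters shown.

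The label of these promoters was checked against the peaks. The 2218 genes rested on 2048 differentiating peaks, since 361 genes (16.3%) shared their peak with another of them, with at most 3 genes on 1 peak, and 16 genes had more than 1 peak. For 436 genes (19.7%) the differentiating peak itself overlapped a proliferating peak that lay outside the promoter region. At these promoters the 2 lists shared at least 1 base of the peak, but not within the promoter region. The other 1782 genes (80.3%) had a differentiating peak that touched no proliferating peak. Results are given for all 2218 genes, with the distances and the counts of members per gene list also given without the 436.

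The edge of the region decided the membership of single genes. Just inside the rule, the nearest proliferating peak lay 0 bp from the promoter region of Gucd1 and 1 bp from those of Fam228b and Chrm4. Just outside it, 1 bp of a proliferating peak reached into the promoter regions of Stmn1 and Tent2, and 2 bp into that of Cers1. Stmn1, which encodes the microtubule regulator stathmin, had a fold enrichment over background of 5.21 in the differentiating list and 5.42 in the proliferating list, so that it was left out by a single base.

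Around the TSS, the cover by peaks showed where the 2 lists parted. At the TSS, 63.7% of the 2218 genes lay under a differentiating peak, and the cover rose to 74.8% at 100 bp downstream and fell to 38.7% at 500 bp. Cover by proliferating peaks was 0 within the promoter region, as the rule requires, and reached 17.1% at 400 bp and 16.2% at 500 bp downstream, just past the edge. It was 7.53% at 1000 bp downstream, where 11.4% of the genes lay under a differentiating peak. Among the 3867 genes with a promoter peak in both lists (17.6% of all genes), the 2 lists gave cover of 79.0% and 73.1% at the TSS. Of the 1345 genes with a promoter peak in the proliferating list only, 50.1% had their TSS under a proliferating peak.

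**Figure D1:**
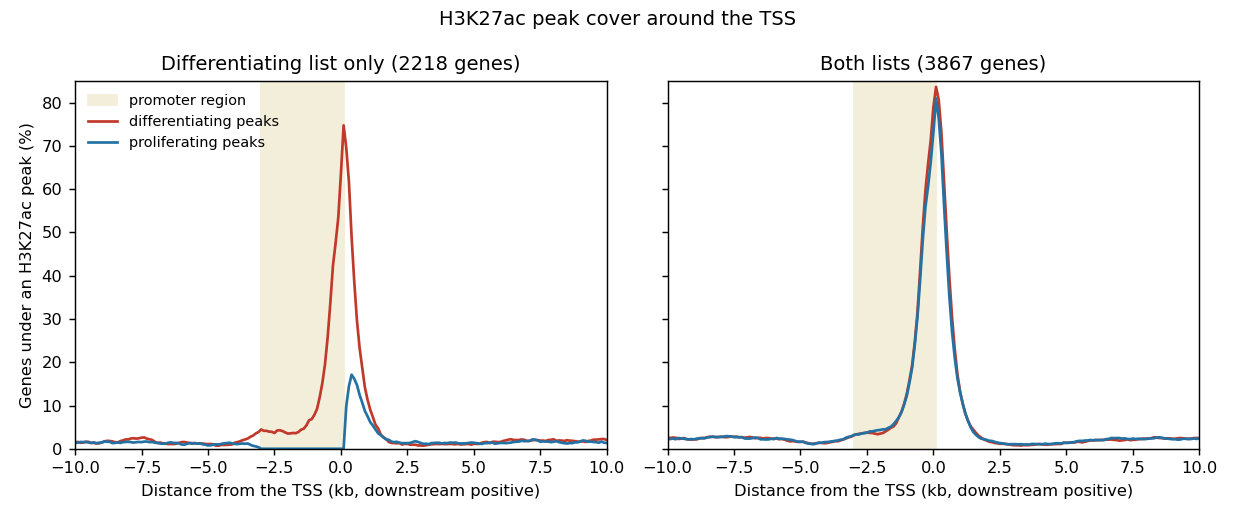
Share of genes (y axis, percent) whose position at a given distance from the TSS (x axis, kb, downstream positive) lay under an H3K27ac peak of the differentiating (red) or proliferating (blue) library, for genes with a promoter peak in the differentiating list only (left) or in both lists (right). In the left panel the blue line is 0 in the shaded promoter region by the rule and reaches 17.1% at 400 bp downstream, where the red line is at 49.0%.

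The peaks of these promoters were moderate in height. Fold enrichment, the ratio of signal to the local background that the authors' peak caller gave each peak, had a median of 3.32 and ran from 1.33 to 6.84, with 3.05 and 3.69 as quartiles. The median of all 27965 differentiating peaks was 3.13, and that of the promoters with a peak in both lists was 3.49. The significance, as −log10 of the false discovery rate q, had a median of 2.26 against 3.18 at the promoters marked in both states. At the 2218 genes it ran from 1.04 to 13.7. A q of at most 0.05, the limit the study states for its peaks, was reached by 2096 of them (94.5%, 93.5 to 95.4). Of the 2218 genes, 130 (5.86%, 4.92 to 6.92) had a −log10 q of 5 or more, as had 802 of the 3867 promoters marked in both states (20.7%, 19.5 to 22.1). In the proliferating list, the 1345 genes with a promoter peak in that list only had a median −log10 q of 2.20. Of these, 49 (3.64%, 2.71 to 4.79) reached 5 or more, so weaker peaks were not particular to the differentiating-only genes. Peak width had a median of 762 bp, against 755 bp for all differentiating peaks and 998 bp for the promoters marked in both states. For the proliferating-only genes the median width of the proliferating peak was 712 bp. Since a gene belonged to the group through these peaks, their values describe it and were not tested.

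The share of differentiating-only genes fell as the peaks became more significant. Of the 6085 genes with a differentiating promoter peak (27.7% of all genes), 2218 (36.5%) had no proliferating peak there. When these 6085 genes were ordered by −log10 q and divided into 10 groups of equal size, the share without a proliferating promoter peak was 64.5% (60.6 to 68.3) in the group of lowest significance and 12.2% in the group of highest significance. It fell at every step between them. The lists hold no reads for places without a peak, so an absent mark and one just under the calling limit in proliferating cells cannot be told apart.

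**Figure D2:**
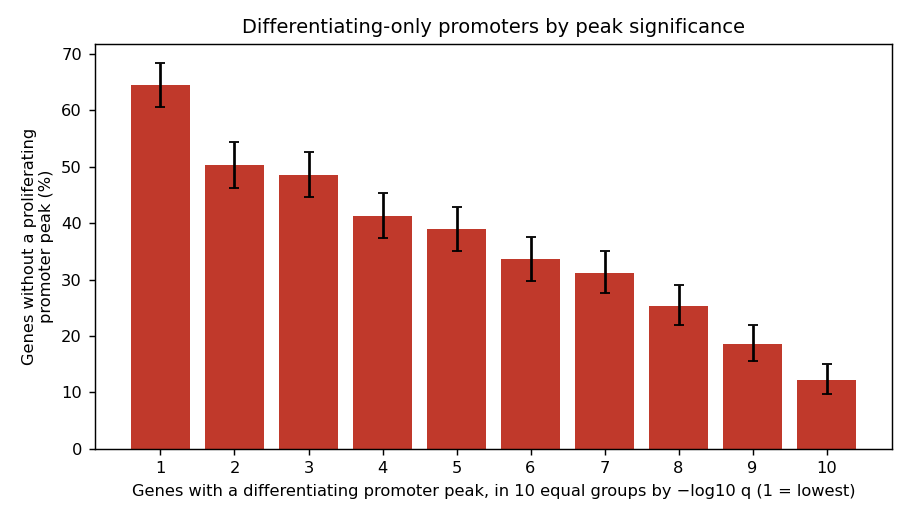
Share of genes (y axis, percent) without a proliferating promoter peak in 10 groups of equal size (x axis) of the 6085 genes with a differentiating one, ordered by the −log10 q of that peak, with 95% exact binomial intervals. The bars fall from 64.5% in the group of lowest significance to 12.2% in that of highest significance.

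The highest fold enrichment belonged to Rab14 (ENSMUSG00000026878.17, chromosome 2, TSS at 35201120 on the minus strand), a small GTPase of endosomal and Golgi traffic. Its peak (chr2:35200330-35201133) had a fold enrichment of 6.84 and a −log10 q of 13.7, above those of 99.6% and 99.4% of all differentiating peaks. This gene was also among the 436, since a proliferating peak with a fold enrichment of 4.77 on the scale of its own list began 25 bp past the promoter region and overlapped the differentiating peak. The same held for Pip5k1a, which makes the lipid PIP2, with 5.83 and a proliferating peak 70 bp away, for Rpl27, a protein of the large ribosomal subunit, with 5.49 and 33 bp, and for Rell1 with 5.44 and 67 bp. Enrichments in the 2 lists are each on the scale of their own library and were not compared in size.

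Of the 12 genes of highest fold enrichment, 8 had a peak that touched no proliferating peak. Pdss2, an enzyme of coenzyme Q synthesis, had a fold enrichment of 5.70 and lay 6815 bp from the nearest proliferating peak. Zfp87, a zinc finger gene, and Gm26965 shared 1 peak with a fold enrichment of 5.66 and lay 22856 bp and 22882 bp from a proliferating peak. Fbxo33, a substrate receptor of a ubiquitin ligase, had 5.51 at a distance of 152047 bp. Timm17a, a subunit of the mitochondrial import machinery, had 5.50 at 10051 bp. Txnrd3, a thioredoxin reductase, had 5.49 at 132795 bp, and Wdr45, an autophagy gene on chromosome X, had 5.31 at 137025 bp. Dcp1b, a cofactor of mRNA decapping, had 5.32, with a proliferating peak 603 bp upstream of its promoter region. The strongest peaks of the group held both promoters far from any proliferating peak and promoters beside one.

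The 5 widest peaks were mostly in contact with a proliferating peak. A longer peak has more room to touch one outside the promoter region, so no conclusion is drawn from these contacts. Ubtf, the activator of ribosomal RNA genes, had a peak of 3840 bp, Phlda1 one of 3517 bp, Rims1 one of 3402 bp, Spns2 one of 3327 bp and H2-DMa one of 3071 bp. Apart from Spns2, a transporter of sphingosine 1-phosphate whose nearest proliferating peak was 8055 bp away, all of these peaks overlapped a proliferating peak that began 207 to 391 bp from the promoter region. Their fold enrichments were low, between 2.51 for Phlda1 and 3.14 for Spns2.

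The distance from the promoter region to the nearest proliferating peak had a median of 12941.5 bp (95% interval from order statistics 11869 to 14462), with quartiles of 1459.5 and 36381 bp. A proliferating peak lay within 100 bp for 226 genes (10.2%), within 1000 bp for 526 (23.7%, 22.0 to 25.5), within 5000 bp for 755 (34.0%) and within 20000 bp for 1345 (60.6%). For 383 genes (17.3%, 15.7 to 18.9) no proliferating peak was found within 50000 bp. Without the 436 genes whose peak touched a proliferating peak, the median was 19071 bp, and 95 of 1782 genes (5.33%, 4.33 to 6.48) had a proliferating peak within 1000 bp.

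The mirror group, 1345 genes whose promoter peak came from proliferating cells only (6.13% of all genes and 25.8% of those with a proliferating promoter peak), gave distances of the same order. Its median distance to the nearest differentiating peak was 10274 bp (8957 to 12178), 28.1% (25.7 to 30.6) lay within 1000 bp, and 18.4% (16.4 to 20.6) had none within 50000 bp. The 14521 promoters with a peak in neither list lay farther from a proliferating peak, with a median of 36671 bp, 5.89% within 1000 bp and 42.2% with none within 50000 bp. The distances were not adjusted for the density of genes or of CpG, which also differed between these groups, and the part of either was not tested.

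**Figure D3:**
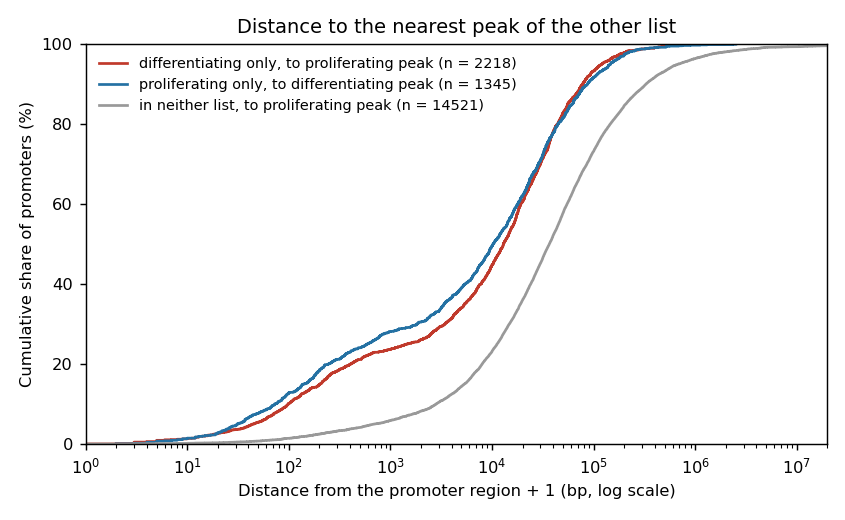
Cumulative share of promoters (y axis, percent) by distance from the promoter region to the nearest peak of the other list plus 1 (x axis, bp, log scale), for genes with a differentiating peak only (red), with a proliferating peak only (blue) and in neither list, to the proliferating list (grey). The red and blue lines lie close together, with medians of 12941.5 and 10274 bp, and left of the grey line, whose median is 36671 bp.

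The side of the neighbouring proliferating peak depended on its distance. Among the 526 genes with a proliferating peak within 1000 bp, it lay downstream of the TSS for 483 (91.8%, 89.1 to 94.0), where the region reaches only 100 bp. Among the 1463 genes without one within 5000 bp, it lay downstream for 714 (48.8%, 46.2 to 51.4). Of the near peaks, 440 of the 526 (83.7%, 80.2 to 86.7) overlapped a differentiating peak, against 561 of the 1463 distant ones (38.3%, 35.8 to 40.9). All but 95 of these 526 genes had a differentiating promoter peak that itself touched a proliferating peak. The overlap of the near peaks is thus largely with the peaks by which the genes were picked, and the difference between these shares is not a result. A proliferating peak lay in the body of the gene, at least in part outside the promoter region, for 1061 of the 2218 genes (47.8%, 45.7 to 49.9) and for 3602 of the 14521 genes in neither list (24.8%, 24.1 to 25.5). The same count for the proliferating-only group with differentiating peaks was 646 of 1345 (48.0%, 45.3 to 50.7).

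The 5 most isolated promoters were Rap2c, Siah1b and Fam120c on chromosome X and the olfactory receptor genes Olfr616 and Olfr617 on chromosome 7. Rap2c, a small GTPase of the Ras family, had a differentiating peak with a fold enrichment of 3.59 that lay within its promoter region. That peak had the shortest length in the list, 279 bp, and the nearest proliferating peak was 1967169 bp away. Siah1b, a ubiquitin ligase, had a fold enrichment of 5.08, above that of 98.8% of differentiating peaks, at 1315553 bp. Fam120c had 3.04 at 919317 bp. The 2 olfactory receptor genes shared 1 peak of 279 bp, the shortest length in the list, with a fold enrichment of 3.26. On chromosome X 23 of 948 genes (2.43%) belonged to the group, and on chromosome Y 0 of 183. Chromosome X held 147 of the 27965 differentiating peaks, and the distances were not adjusted for the number of peaks on a chromosome.

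Sequence gave a view of these promoters that the rule had not used. In the 300 bases around the TSS, 1561 of the 2218 genes (70.4%, 68.4 to 72.3) had a CpG ratio of at least 0.6, a common bound for CpG-rich promoters. The share was 82.7% at promoters marked in both states, 62.2% in the proliferating-only group and 28.5% at promoters in neither list, against 44.4% of all genes. The median GC content was 60.0% against 62.7%, 58.7% and 51.3% in the same order. A second protein-coding TSS on the other strand lay within 1000 bp for 403 of the 2218 genes (18.2%, 16.6 to 19.8). The share was 25.1% at promoters marked in both states, 14.6% (12.7 to 16.6) in the proliferating-only group and 5.61% in neither list. By these measures the differentiating-only promoters stood between those marked in both states and those in neither list, on the side of the former. The proliferating-only promoters stood between them as well, so this place is not particular to the differentiating-only group.

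**Figure D4:**
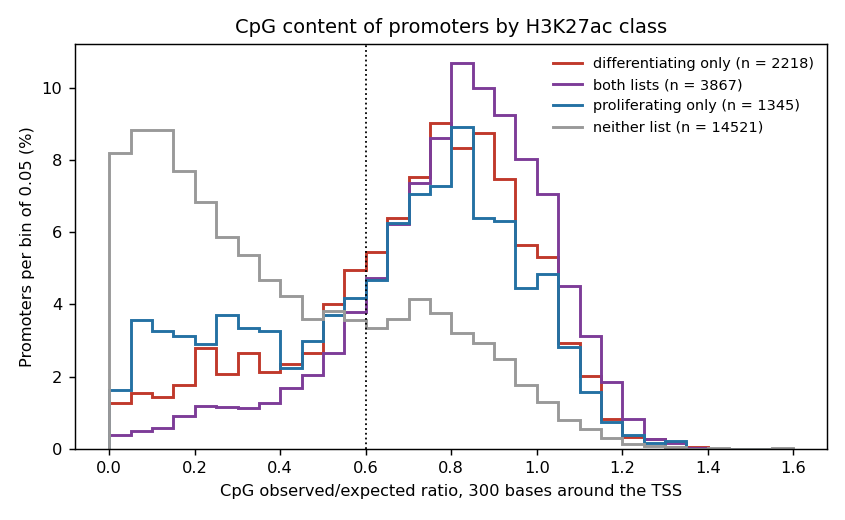
Distribution of the CpG observed over expected ratio in the 300 bases around the TSS (x axis) as the share of promoters per bin of 0.05 (y axis, percent) for the 4 groups of genes, with a dotted line at 0.6. The differentiating-only promoters (red) have 70.4% of their genes right of the line, the promoters marked in both states (purple) 82.7% and those in neither list (grey) 28.5%.

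The letters of 13 motifs were counted in the same 300 bases on both strands: TGACGTCA (CRE), TGANTCA (AP-1), CACGTG and CAGCTG (E-boxes), CCGGAAG (ETS), GCGCATGC (NRF1), CCAAT itself, the GC box GGGCGG, the TATA box spelled TATAAA, TTTCGCGC (E2F), AAGATGGC (YY1), AACAAT (SOX) and GTAAACA (FoxO). None of these strings contains another of them. The GC box occurred in 61.8% of the differentiating-only promoters, 67.5% of those marked in both states and 43.0% of all promoters. The YY1 letters occurred in 5.37%, 5.56% and 2.92%. The TATA box was less common at these promoters, with 7.35%, 5.40% and 12.6%, and so were the SOX letters, with 5.91%, 5.40% and 10.1%. AP-1 letters occurred in 3.74% of the differentiating-only promoters, 6.32% of the proliferating-only promoters and 6.90% of all promoters. FoxO letters occurred in 2.89%, 2.30% and 3.05% of the same groups. CCAAT was found in 37.7% of the differentiating-only promoters and 39.0% of all promoters. GC-rich and AT-rich strings follow the base composition of a window, and the counts were neither adjusted for it nor tested.

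By function, the members were read from 38 gene lists, against the background that 10.1% of all genes and 36.5% of genes with a differentiating promoter peak belonged to the group. The share of members also fell with peak significance, as given above. The lists were not matched for the significance of their peaks, so its part in a list's share was not tested. Lists of families were taken by gene symbol, so that a few relatives are counted with them. Each gene was read at its most upstream TSS only, so a gene in neither list may have a peak at another start site. Of 34 myelin sheath genes 1 (2.94%, 0.0744 to 15.3) was a member (Nfasc, a cell adhesion molecule of axon and glia), 4 had a peak in both lists and 29 in neither. Its differentiating peak covered the TSS with a fold enrichment of 3.56, and the nearest proliferating peak was 8156 bp away. Of 22 genes of oligodendrocyte precursors 1 (4.55%, 0.115 to 22.8) was a member (C1ql1, 2.70, a proliferating peak 119 bp away that touched its own), 9 had a peak in both lists and 12 in neither. Both intervals include the background of 10.1%. Of 21 genes of newly formed oligodendrocytes 3 were members (14.3%, 3.05 to 36.3), or 33.3% (7.49 to 70.1) of the 9 with a differentiating promoter peak. These intervals include the backgrounds of 10.1% and 36.5%. The 3 members were the sialidase Neu4 with a fold enrichment of 3.53, the adhesion protein Parvb with 3.21 and the calcium channel Itpr2 with 3.02. None of them had a touching peak.

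Among 32 transcription factors of the lineage 7 were members (21.9%, 9.28 to 40.0), 12 had a peak in both lists and 4 in the proliferating list only. The members were 36.8% (16.3 to 61.6) of the 19 genes with a differentiating promoter peak. These intervals include the backgrounds of 10.1% and 36.5%. Tfeb, a regulator of lysosome genes known to restrain myelination, had the highest fold enrichment of the 7 with 4.49, and its peak began downstream of the TSS at chr17:47737049. A proliferating peak lay 145 bp past its promoter region and overlapped the differentiating peak. Sox8, a relative of Sox10, had 3.11 with a proliferating peak 2442 bp away, and Nfia, a factor of glial development, had 3.08 at 3963 bp. Myrf, which activates myelin genes, had 3.05 and a touching proliferating peak 408 bp away. St18 had 2.95 at 29536 bp, and Prrx1 had 2.62 at 853 bp. Tfeb and Myrf were the 2 of the 7 whose peak touched a proliferating peak.

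Inhibitors of the Id and Hes families, which block the action of basic helix-loop-helix factors, gave 4 members of 10 genes, with 3 in both lists and 3 in neither. All 4 touched no proliferating peak. Hey1, a target of Notch signalling, had a fold enrichment of 4.29, with its peak upstream of the TSS and the nearest proliferating peak 153576 bp away. Id2 had 3.73 at 62276 bp, Id3 3.16 at 14096 bp and Id1 3.16 at 9096 bp. The Id1 peak covered the TSS over 2251 bp, whereas those of Id2 and Id3 lay upstream, with widths of 344 and 483 bp. The 4 members were 40.0% (12.2 to 73.8) of the list, above the 10.1% of all genes. They were 57.1% (18.4 to 90.1) of the 7 genes with a differentiating peak, an interval that includes the background of 36.5%.

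Genes of lipid droplets, the stores of neutral lipid, gave 6 members of 18 (33.3%, 13.3 to 59.0), and 6 of the 8 with a differentiating promoter peak (exact interval 34.9% to 96.8%). Fitm2, which partitions triglyceride into droplets, had a fold enrichment of 4.83 and a proliferating peak no nearer than 62844 bp. The droplet coat genes Plin5, Plin1 and Plin4 had 4.57, 3.17 and 2.72, at 6873, 2943 and 14666 bp. Pnpla2, the triglyceride lipase of droplets, had 3.42 at 4637 bp, and Bscl2, which encodes seipin, had 2.76 at 13655 bp. Plin5 and Plin4 lie on the same strand of chromosome 17 with the same nearest proliferating peak, so they are not independent of each other. None of the 6 peaks touched a proliferating peak. The first interval lies above the 10.1% of all genes, and the second includes the 36.5% of genes with a differentiating promoter peak. Of the 17 genes that the study names for accessibility, 2 were members (11.8%, 1.46 to 36.4), Id1 and Plin4. They were 40.0% (5.27 to 85.3) of the 5 with a differentiating promoter peak. These intervals include the backgrounds of 10.1% and 36.5%.

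Synthesis of cholesterol, fatty acids and sphingolipids differed from this in its counts, with 4 members of 44 genes and 25 marked in both states. The members were 13.8% (3.89 to 31.7) of the 29 genes with a differentiating promoter peak, below the background of 36.5%. Acaca, which makes malonyl-CoA for fatty acid synthesis, shared its peak with a second member and had a fold enrichment of 3.80, with a proliferating peak 49155 bp away. The peak of Ugcg, the first enzyme of glucosylceramide synthesis, had 3.31 at 57701 bp. Fads1, a fatty acid desaturase, and Msmo1, an enzyme of cholesterol synthesis, had 3.37 and 3.35, but touching proliferating peaks lay 14 and 152 bp away. For Msmo1 that proliferating peak had a fold enrichment of 7.01 in its own list.

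Proteasome genes (subunits, activators and assembly chaperones) had the largest share among the lists of proteasome, ribosome, respiration, translation and splicing genes, with 16 members of 48 genes (33.3%, 20.4 to 48.4), 9 in both lists, 3 in the proliferating list only and 20 in neither. The members were 64.0% (42.5 to 82.0) of the 25 genes with a differentiating promoter peak, and 14 of the 16 touched no proliferating peak. Psme4, a proteasome activator, had a fold enrichment of 4.82 and a proliferating peak no nearer than 72436 bp. Psmd3, of the regulatory particle, had 4.34 at 2909 bp, the immune subunit Psmb9 had 4.24 at 247 bp, and Psma3, of the core ring, had 4.06 with a touching peak at 70 bp. The list is 1 of 38 that were read, the interval covers counting error only, and the share was not adjusted for peak significance.

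For other genes of mitochondria and translation the intervals included the background of 36.5%. Mitochondrial ribosomal proteins gave 18 members of the 36 with a differentiating promoter peak (32.9% to 67.1%), of which 17 touched no proliferating peak, with Mrps14 (4.36) and Mrps35 (4.35) highest in fold enrichment. Nuclear genes of oxidative phosphorylation gave 18 of 44 (40.9%, 26.3 to 56.8), 14 without a touching peak, among them Ndufa12 with 3.93 and Cox6a1 with 3.83. Cytosolic ribosomal proteins gave 17 of 50 (34.0%, 21.2 to 48.8), 13 of them without a touching peak. Translation initiation factors and their kinases gave 11 of 30 (36.7%, 19.9 to 56.1), with 9 untouched. Rpl34 had a fold enrichment of 4.25 at 211801 bp from a proliferating peak, whereas Rps20 and Rpl30 had touching peaks 54 and 46 bp away. Of the 13 genes of the mitochondrial genome, which carries no histones, mt-Atp6, mt-Atp8 and mt-Co3 were counted through 1 shared peak with a fold enrichment of 1.33, the lowest of the group.

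Lysosome and autophagy genes gave 11 members of 39, or 45.8% (25.6 to 67.2) of the 24 with a differentiating promoter peak. Besides Tfeb they were Atg7, an enzyme of autophagosome formation, with a fold enrichment of 4.21 at 1995 bp, the lysosomal calcium channel Mcoln1 with 3.87 at 48254 bp, and Becn1, of the complex that starts autophagy, with 3.75 at 3302 bp. The hydrolases Ctsb, Galc, Neu1 and Asah1 had 3.67, 3.51, 3.30 and 3.01. Laptm4b, Gabarapl2 and Npc1 had 3.61, 3.07 and 2.95. Galc and Asah1 degrade sphingolipids, and their nearest proliferating peaks were 213 and 134232 bp away, that of Galc touching its own peak. Of the 11, 9 touched no proliferating peak.

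The pathway of Erbb receptors, Ras and PI3K, which the inhibitor in the differentiation medium acts on, gave 11 members of 47, or 45.8% (25.6 to 67.2) of the 24 with a differentiating promoter peak. Errfi1, a feedback inhibitor of Erbb receptors, had the highest fold enrichment with 4.24, and the nearest proliferating peak was 12880 bp away. The ligand Nrg2 had 3.48 at 80223 bp. Without touching peaks 9 members remained. Of the Ras and ERK cascade, Braf had 3.89 with a touching peak 524 bp away and Map2k1 had 3.39 at 199 bp. On the PI3K side, Pik3ca had 3.59 at 27303 bp, Akt1 3.19 at 10819 bp, Tsc2 3.40 at 34412 bp, Rheb 3.24 with a touching peak at 141 bp and Rptor 3.35 at 82596 bp. The members included a ligand, kinases, a GTPase and inhibitors of the pathway.

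Genes of the cell cycle were found on both sides. Those of cell cycle exit gave 6 members of 24, or 40.0% (16.3 to 67.7) of the 15 with a differentiating promoter peak. Btg1, an antiproliferative gene, had a fold enrichment of 3.68 with a touching proliferating peak 23 bp away, and Cdkn2b, an inhibitor of CDK4 and CDK6, had 3.53 with one 102 bp away. Ccng2, a cyclin raised in resting cells, had 3.49 at 22289 bp, Gadd45g 3.26 at 26829 bp, Gas2 3.20 at 110168 bp and Gadd45b 3.00 at 9137 bp, so that 4 of the 6 had no touching peak. Of DNA replication and mitosis 5 of 45 genes were members, which is 22.7% (7.82 to 45.4) of the 22 with a differentiating peak. Mki67, a marker of dividing cells, was counted through 4 bp of a 279 bp peak, with a fold enrichment of 3.94. The mitotic kinases Aurkb and Plk1 had 3.36 and 3.22, and the helicase subunit Mcm2 had 2.97. The Aurkb peak touched a proliferating peak 50 bp from the promoter region, and those of the other 4 members touched none.

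The other lists are given by their shares of the genes with a differentiating promoter peak. Replication-dependent histones gave 2 of 34 (5.88%, 0.720 to 19.7), while 17 genes of that list were marked in proliferating cells only. Splicing factors and hnRNPs gave 4 of 35 (11.4%, 3.20 to 26.7), immediate early and ERK target genes 4 of 21 (19.0%, 5.45 to 41.9), enzymes of histone acetylation and methylation 8 of 37 (21.6%, 9.83 to 38.2) and actin cytoskeleton genes 9 of 38 (23.7%, 11.4 to 40.2). Without touching peaks these counts were 1 for the histones, 2 for splicing, 1 for the immediate early genes, 6 for the enzymes and 6 for actin. Among the enzymes were the arginine methyltransferase Prmt1 with a fold enrichment of 4.57, the acetyltransferases Kat2a with 3.59 and Kat2b with 3.31, and the deacetylase Hdac10 with 3.52. The peaks of Prmt1 and Kat2b touched proliferating peaks 283 and 74 bp away. Cdc42, a GTPase of the actin cytoskeleton, had 5.28, but a touching proliferating peak began 3 bp from its promoter region. Kinesins gave 9 of 18 (26.0% to 74.0%) and Rab GTPases 7 of 24 (29.2%, 12.6 to 51.1). The large families of numbered zinc finger proteins and solute carriers gave 61 of 150 (40.7%, 32.7 to 49.0) and 41 of 97 (42.3%, 32.3 to 52.7). Of these 4 families 7, 6, 44 and 35 members had no touching peak.

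The unfolded protein and integrated stress response gave 5 of 22 (22.7%, 7.82 to 45.4), among them the kinases Eif2ak4 with 3.56 and Eif2ak3 with 3.04, and Manf with 2.97. FoxO targets and genes of growth factor withdrawal gave 2 of 14 (14.3%, 1.78 to 42.8), Ccng2 and Txnip, with 12 genes of that list marked in both states. The microtubule cytoskeleton gave 1 of 14 (7.14%, 0.181 to 33.9), Mapre2 with 3.75. None of the members of these 3 lists had a touching peak. Of 1479 olfactory and vomeronasal receptors 14 (0.947%, 0.518 to 1.58) were members, all without a touching peak, 3 had a peak in both lists and 24 in the proliferating list only. The members were 82.4% (56.6 to 96.2) of the 17 receptors with a differentiating promoter peak, so that most receptors with a peak had it in one list only, and more of them in the proliferating list. Keratin genes gave 3 members of 113 (2.65%, 0.551 to 7.56) and potassium channels 2 of 94 (2.13%, 0.259 to 7.48), both below the 10.1% of all genes. Clustered protocadherins gave 3 of 57 (5.26%, 1.10 to 14.6) and Hox genes 4 of 39 (10.3%, 2.87 to 24.2), intervals that include it. Without touching peaks the counts were 3, 1, 2 and 3. No astrocyte, microglial or endothelial gene of the 12, 12 and 6 on those lists was a member, and Syt1 was the only one of 12 neuron genes, with a fold enrichment of 3.69.

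**Figure D5:**
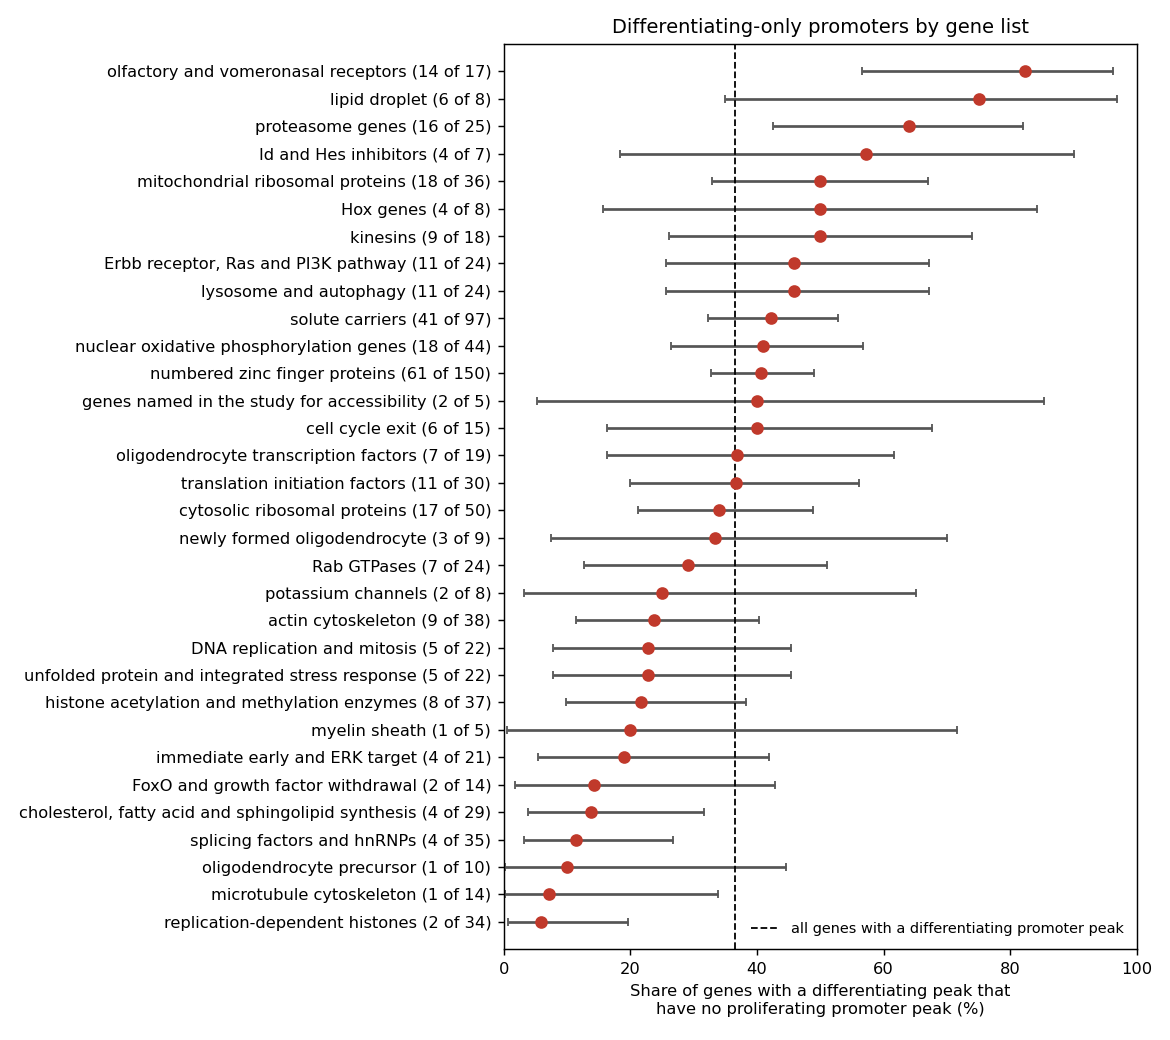
Share (x axis, percent, with 95% exact binomial intervals) of the genes with a differentiating promoter peak that had no proliferating promoter peak, for each gene list with at least 5 such genes (y axis, members and genes with a peak in brackets), beside the 36.5% over all genes (dashed line). Proteasome genes (64.0%) and olfactory and vomeronasal receptors (82.4%) lie right of the line with their intervals, and replication-dependent histones (5.88%), splicing factors (11.4%), microtubule cytoskeleton (7.14%) and lipid synthesis (13.8%) left of it. The lists were not matched for peak significance.

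The share of genes that were members differed between chromosomes. Among chromosomes 1 to 19 it ran from 6.21% on chromosome 14 to 14.0% on chromosome 15, and it was 13.2% on chromosome 12, 13.0% on chromosome 10, 12.9% on chromosome 1 and 12.8% on chromosome 11. Chromosomes 1, 10 and 15 together held 33.8% of all 27965 differentiating peaks, whereas chromosome 12 held 860 peaks and chromosome 11 held 1906, so that a high share of members was also found where peaks were fewer. The median distance to a proliferating peak and the share of CpG-rich promoters without chromosomes 1, 10 and 15 were 14961 bp and 72.0%.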

How the data were processed

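H3K27ac ChIP-seq of Oli-neu cells, 1 library per state, was analysed. Following the study's methods and the submitters' processing notes, the authors aligned reads to GRCm38/mm10 with Bowtie2 2.1.0, kept uniquely mapped reads, removed PCR duplicates with SAMtools, called broad peaks in each library with MACS2 2.0.10 and removed blacklisted regions with bedtools. An input library is not given in the sources used here. Each deposited peak has coordinates and 3 values without a header, taken in the order of the peak caller to be a ratio called fold enrichment, then −log10 p, then −log10 q. The lists hold no counts, so the depth behind a peak is unknown.

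Promoters (3000 bp upstream to 100 bp downstream, with strand) came from the most upstream end of each protein-coding gene of GENCODE M21, on the same build, and any shared base was an overlap. The study used another annotation release. Sequences and CpG ratios were read from the GRCm38 genome. Percentiles, medians and 95% exact (Clopper-Pearson) intervals were computed with Python 3.11.15, numpy 2.4.6, pandas 2.3.3, scipy 1.17.1 and pysam 0.24.0, and plots with matplotlib 3.10.9. Intervals cover counting error only. The counting was tested on simulated peaks. The members and the 38 lists were chosen with earlier results of these data known. Named genes were the 12 members of highest fold enrichment, the 5 widest peaks, up to 4 members of highest enrichment per list, the 3 nearest to a proliferating peak with the 3 left out by the smallest overlap, the 5 farthest and the members the study names for accessibility. Further members of some lists and the mitochondrial genes were named after their values were seen. Alternatives were other promoter definitions, q limits, overlaps, distances to a proliferating peak and chromosomes. For some members that the rule names, values or sequences are not reported here.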

Additional observations from a re-analysis of the deposited data

How the results depend on the processing

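Of 11 alternatives for each of the 4 values, the number of genes stayed within 1.5 times of 2218 under 8. It was 623 with a differentiating −log10 q of at least 3, 130 with at least 5, and 1463 when no proliferating peak was allowed within 5000 bp of the promoter region. The median distance to a proliferating peak, with 12941.5 bp as the main value, was 20223 bp for a promoter reaching 1000 bp to either side, 8637 bp and 6401.5 bp with a −log10 q of at least 3 and 5, 5590.5 bp when at least 0.5 of a peak had to lie in the promoter, 14961 bp without chromosomes 1, 10 and 15, 20934.5 bp and 26310 bp with no proliferating peak allowed within 1000 and 5000 bp (by construction), and 19071 bp without the peaks that touch a proliferating peak, an alternative chosen after seeing the data. The share of CpG-rich promoters was 66.9% for promoters of 6000 bp upstream, 64.4% with the TSS of every transcript, 75.1% and 81.5% with a −log10 q of at least 3 and 5, and 74.5% with 0.5 of the peak in the promoter. The share of genes with the TSS inside the peak was 57.0% for 6000 bp upstream, 53.2% for 1000 bp on both sides, 68.5% with a −log10 q of at least 5, 71.1% with 0.5 of the peak in the promoter and 61.6% without the touching peaks. The other values stayed within the 95% interval of the main value. The limit of 0.5 of a peak was applied to both lists. Genes with a proliferating peak of which less than 0.5 lay in the promoter could thus become members. By construction this pulls the median distance down, and the shares under this limit rest on the same changed membership. The causes of the remaining shifts were not tested. The unknown depth per peak limits all counts of absent peaks. No paired analysis was possible because each state had 1 library and the ATAC-seq groups that share replicate numbers were not analysed here. Leaving out a replicate was not possible for the same reason.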
